A study of Mus musculus with 8 samples.

Results

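Many mouse genes still carry a provisional name, and the 2 classes described here are chosen by that name. A symbol ending in Rik was given to a transcript known first from a full-length cDNA clone of the RIKEN collection, and a symbol of Gm and a number was given to a predicted gene model. Such a name says nothing of function, so each class mixes protein-coding genes, long non-coding RNAs (lncRNAs) and pseudogenes. In a deposited table of 10663 genes measured in 3T3-L1 adipocytes, 297 symbols ended in Rik and 59 were Gm with a number, which made 356 members. The Gm-numbered entry Gm1821 was left out by the rule. No measured value was used to choose the members, and the 2 classes are kept apart below.

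The cells are 3T3-L1, a clonal mouse fibroblast line that becomes fat cells in culture, used at passage 2 to 3. Cells labelled miR-690oe (n = 4 libraries) overexpressed the microRNA miR-690, and the other 4 libraries were labelled control. All 8 libraries carry the same protocol text, a miR-690 mimic at 5 pM, and the labels do not say whether the control cells were given something else. Nor do they tell separate cultures from repeat libraries of 1 culture, so each p-value speaks of the spread among 8 libraries, a spread that may be technical. Values are CPM, reads of a gene scaled to 1000000 reads over the listed genes.

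The miR-690oe libraries held 31211349 to 38235522 reads and the control libraries 29773446 to 33816227 reads over the listed genes, as recovered from the step between values. The median member had 306 to 427 reads per library, and the lowest member value in any library was 7 reads. Counting error covers only part of the spread between libraries: chi-square values per gene between replicates were 9.49 to 21.95 in miR-690oe pairs and 3.96 to 8.035 in control pairs, and the 3 pairs with miR-690oe replicate 1 were the highest, from 16.99 up. All 12 adipocyte markers looked for were listed, and their summed level was 10910 to 14210 CPM in miR-690oe and 12590 to 13980 CPM in control libraries, with 0 markers higher and 2 lower. Of 7 preadipocyte and fibroblast markers, 6 were listed, at a summed 3142 to 4237 CPM in miR-690oe and 3336 to 3881 CPM in control libraries, with 2 higher. Of 6 macrophage markers, 3 were listed, at a summed 21.5 to 24.1 CPM in miR-690oe and 24.1 to 27.9 CPM in control libraries, and 2 of these were lower. Of 5 endothelial markers, 1 was listed, at 2.51 to 3.90 CPM in miR-690oe and 3.14 to 3.76 CPM in control libraries. Whether shifts in these markers bear on any member was not tested, and in such bulk samples fewer cells of a type and less RNA per cell cannot be told apart.

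A lncRNA is a transcript that encodes no known long protein. Some lncRNAs serve as hosts, with small nucleolar RNAs (snoRNAs, which guide the chemical modification of ribosomal RNA) or microRNAs cut from their introns, and others overlap a coding gene on the same or the opposite strand. A processed pseudogene is a copy of a spliced mRNA put back into the genome, and its reads can be hard to tell from those of its parent. A microRNA such as miR-690 lowers the mRNAs whose 3' untranslated region (3' UTR) pairs with its seed, bases 2 to 8 counted from its 5' end.

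By GENCODE M21 on the mm10 build, the Rik class held 178 protein-coding genes, 102 lncRNAs and 8 pseudogenes, and 9 Rik symbols were not matched. The Gm class held 22 protein-coding genes, 24 lncRNAs and 10 pseudogenes, with 3 not matched. RefSeq now lists 57 Rik and 3 Gm members under another name, so part of the list is known under that name: C9orf72, Virma, Cip2a and Micos13 are examples. The members had shorter transcripts and lower levels than the other genes of the table. Median transcript length was 2096 nt for Rik and 1260 nt for Gm members, against 3141 nt for the other genes. Median control level was 13.1 CPM for Rik and 4.52 CPM for Gm members, against 46.6 CPM for the other genes. Together the Rik members took 8055 to 8241 CPM in miR-690oe and 8090 to 8248 CPM in control libraries, and the Gm members 581 to 659 CPM in miR-690oe and 547 to 621 CPM in control libraries. The ranges of the groups overlapped in both classes.

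A gene is called higher or lower here where limma's test on log2(CPM + 0.5) gave an adjusted p under 0.05 over all 10658 genes tested, and log2 fold changes are miR-690oe over control on that scale, which understates the change of low genes. The background of calls is high: 43.4% of all genes tested were called, 26.0% higher and 17.4% lower. Of the 297 Rik members, 296 passed the filter on low values, and 46 were higher and 45 lower, which is 30.7%. Of the 59 Gm members, 58 passed, and 7 were higher and 3 lower, which is 17.2%. The members that did not pass were 2900009J06Rik and Gm15972. The median log2 fold change was -0.019 over the Rik and -0.025 over the Gm members tested, against 0.021 over all genes tested. All 4 miR-690oe libraries lay above or below all 4 control libraries for 35 and 42 Rik members (26.0% together) and for 5 and 3 Gm members (13.8%), against 38.3% of all genes tested (22.4% above and 15.9% below). Both called shares lie below that of the table. Without miR-690oe replicate 2 the Gm members called higher were 4 in place of 7. With quantile normalization the calls were 37 Rik higher and 64 lower, and 7 Gm higher and 5 lower. Transcript length and level are set beside these shares further on.

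Changes were small in size. Among called Rik members the log2 fold changes ran from 0.17 to 0.69 for those that rose and from -0.12 to -0.43 for those that fell, and 21 of the 46 and 11 of the 45 passed 0.3 in size. By annotation, 31 of 178 protein-coding Rik members rose and 32 fell, 12 of 101 lncRNAs rose and 11 fell, and 2 of 8 pseudogenes rose and 1 fell. For Gm members, 3 of 22 protein-coding genes rose and 2 fell, 2 of 23 lncRNAs rose and 0 fell, and 1 of 10 pseudogenes rose and 1 fell. Among the other genes, 26.5% of coding genes were higher and 17.5% lower, 16.9% of 59 lncRNAs were higher and 20.3% lower, and 4 of 21 pseudogenes were higher and 4 lower.

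**Figure D1:**
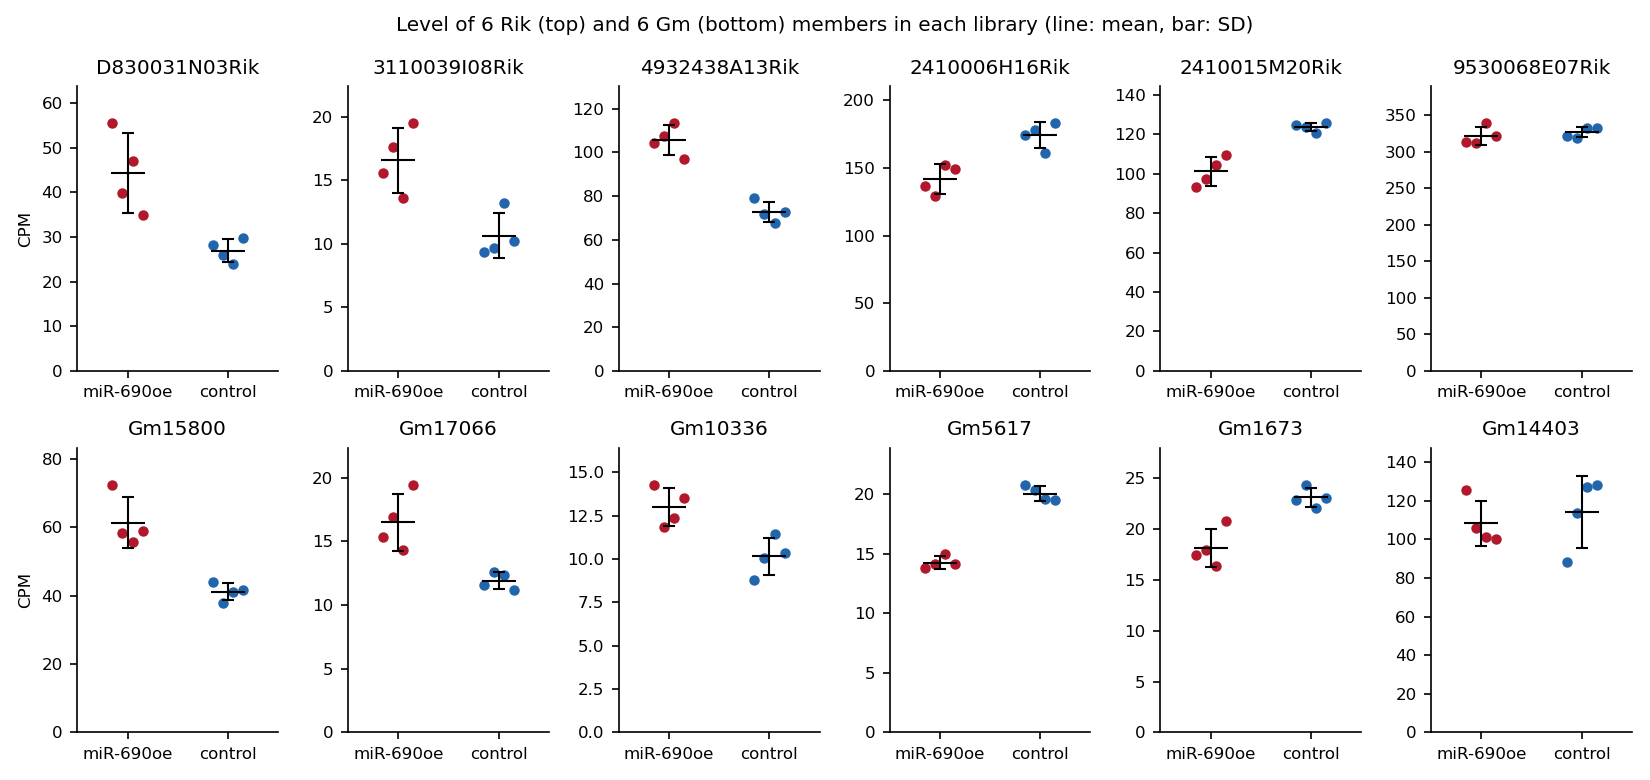
Level in CPM of 6 Rik members (top row) and 6 Gm members (bottom row) in each library, miR-690oe on the left and control on the right. Points are libraries, the line is the mean and the bar the SD (n = 4 each), on axes that start at 0. D830031N03Rik, 3110039I08Rik, 4932438A13Rik, Gm15800, Gm17066 and Gm10336 lie higher in all 4 miR-690oe libraries, 2410006H16Rik, 2410015M20Rik, Gm5617 and Gm1673 lie lower in all 4, and the groups overlap for 9530068E07Rik and Gm14403.

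The Rik members that rose most, among those whose groups did not overlap, were led by a transcript inside a cytoskeletal gene. D830031N03Rik, which RefSeq also lists as Kiaa0754, lies at chr4:123403601-123411911 on the minus strand, within Macf1, the gene of a large protein that links microtubules and actin. It measured 55.5, 39.9, 47 and 34.8 CPM in the miR-690oe libraries, against 28.2, 25.9, 23.9 and 29.8 CPM in the control libraries (log2 fold change 0.69 ± 0.11 SE, adjusted p = 0.000131). Its miR-690oe values were spread widely, and the lowest of them still lay above the highest control value. Macf1 runs on the same strand and rose too, with 217 CPM in miR-690oe against 149.5 CPM in control cells. Its log2 fold change was 0.54 ± 0.049 SE (adjusted p = 2.43e-06), and reads of the 2 genes may have been shared, which was not tested. With the length and GC trend described further on removed, Macf1 was not called (log2 fold change 0.017, adjusted p = 0.821). D830031N03Rik has no matched length and was not in that fit.

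3110039I08Rik is the lncRNA Mir100hg, the host transcript of the microRNAs miR-100, let-7a-2 and miR-125b-1, at chr9:41327077-41716994 on the plus strand. Its values were 15.6, 17.6, 13.6 and 19.5 CPM in the miR-690oe libraries, against 9.38, 9.66, 13.2 and 10.2 CPM in the control libraries, and the groups did not overlap, though control replicate 3 came close to the lowest miR-690oe value (log2 fold change 0.62 ± 0.11 SE, adjusted p = 0.000391). It remained higher after the length and GC trend described further on was removed (log2 fold change 0.51, adjusted p = 0.00653). Levels of the mature hosted microRNAs were not measured here. Their main mature strands as RefSeq gives them (GRCm38.p6) are shown for miR-100 and miR-125b-1 to identify the cluster, with the seed in capitals, and the pair has seeds that differ from each other and from that of miR-690.
miR-100-5p, chr9:41531437-41531458, plus strand: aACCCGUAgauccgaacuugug
miR-125b-5p, chr9:41581940-41581961, plus strand: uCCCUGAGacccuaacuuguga

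4 more Rik members complete the strongest rises. 4932438A13Rik (Kiaa1109, known as Tweek in flies), a giant protein that carries lipids between membranes, has the longest annotated transcript of the class, 15883 nt, and measured 104, 107, 113 and 97.2 CPM in the miR-690oe libraries, against 79, 72, 67.5 and 72.7 CPM in the control libraries (log2 fold change 0.53 ± 0.056 SE, adjusted p = 5.48e-06). Its call was lost without the length and GC trend (log2 fold change 0.051, adjusted p = 0.499). 9930021J03Rik (mKIAA2026) measured 56.5, 54.1, 51.2 and 44.2 CPM in the miR-690oe libraries, against 36.8, 34.3, 35.3 and 38.2 CPM in the control libraries (log2 fold change 0.50 ± 0.068 SE, adjusted p = 4.28e-05). Its rise passed the test in that fit too (log2 fold change 0.22, adjusted p = 0.00893). 2410089E03Rik (Cplane1), needed to build primary cilia, measured 63.9, 55, 51.5 and 50.2 CPM in the miR-690oe libraries, against 38.8, 38.1, 41.7 and 41.5 CPM in the control libraries (log2 fold change 0.45 ± 0.067 SE, adjusted p = 9.44e-05). 2810474O19Rik (Resf1), a nuclear factor that helps silence retroelements, measured 86.1, 82.3, 72.8 and 73.4 CPM in the miR-690oe libraries, against 54.4, 55.8, 63.9 and 59.9 CPM in the control libraries (log2 fold change 0.42 ± 0.063 SE, adjusted p = 9.9e-05). These 2 calls were lost in that fit, with log2 fold changes of 0.074 and 0.15. In each of these 4 the miR-690oe libraries all lay above the control libraries, and all 4 have transcripts over 4000 nt.

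Another ciliary member, 2700049A03Rik, rose as Cplane1 did, and both calls were lost with the length and GC trend removed. Not every member with a role in cilia rose: B230118H07Rik (Iftap), described with the seed matches, fell (log2 fold change -0.17, adjusted p = 0.0279). It stayed lower in that fit. 2700049A03Rik (Talpid3), a centrosomal protein required for cilia, measured 16.5, 16, 16.4 and 14.6 CPM in the miR-690oe libraries, against 11.9, 12.4, 13.6 and 12.4 CPM in the control libraries (log2 fold change 0.33 ± 0.068 SE, adjusted p = 0.00132). C330027C09Rik (Cip2a), an inhibitor of the phosphatase PP2A that is studied in dividing cells, averaged 55.7 ± 3.71 CPM in miR-690oe cells and 47.8 ± 4.21 CPM in control cells (SD, n = 4 each) and rose by the test (log2 fold change 0.22 ± 0.064 SE, adjusted p = 0.0113), although control replicate 3 lay above the lowest miR-690oe value.

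The Rik members that fell most were shorter than the class median or stood under 4 CPM. 0610012G03Rik, a single-exon coding gene at chr16:31947050-31948494 on the minus strand, measured 44.5, 56.2, 49.7 and 56.2 CPM in the miR-690oe libraries, against 68, 66.7, 64.7 and 68.5 CPM in the control libraries (log2 fold change -0.38 ± 0.065 SE, adjusted p = 0.000312). It stayed lower with the length and GC trend removed (log2 fold change -0.23, adjusted p = 0.0126). 2200002D01Rik, a coding gene that RefSeq also lists as H2RSP, averaged 1.96 ± 0.109 CPM in miR-690oe cells and 2.82 ± 0.337 CPM in control cells (SD, n = 4 each, log2 fold change -0.43 ± 0.11 SE, adjusted p = 0.00643). These 2 were the coding genes among the 6 members with the largest falls whose groups did not overlap, and every miR-690oe library was below every control library in both.

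The other 4 of those 6 were lncRNAs near 3 CPM, where 1 CPM stands for about 30 to 38 reads. C330013E15Rik averaged 2.86 ± 0.218 CPM in miR-690oe cells and 3.93 ± 0.413 CPM in control cells (SD, n = 4 each, log2 fold change -0.40 ± 0.10 SE, adjusted p = 0.00642). D330023K18Rik averaged 2.41 ± 0.228 CPM in miR-690oe cells and 3.31 ± 0.244 CPM in control cells (SD, n = 4 each, log2 fold change -0.39 ± 0.11 SE, adjusted p = 0.00778). 1810021B22Rik averaged 2.47 ± 0.101 CPM in miR-690oe cells and 3.31 ± 0.156 CPM in control cells (SD, n = 4 each, log2 fold change -0.36 ± 0.10 SE, adjusted p = 0.00808). The fourth, 1110046J04Rik, averaged 2.62 ± 0.349 CPM in miR-690oe cells and 3.56 ± 0.371 CPM in control cells (SD, n = 4 each, log2 fold change -0.38 ± 0.11 SE, adjusted p = 0.012), and it is the one of the 4 that was still called lower without the length and GC trend (log2 fold change -0.42, adjusted p = 0.021). It lies opposite Serpinb6a, and Serpinb6a fell as well, with 285 CPM in miR-690oe against 321.5 CPM in control cells and a log2 fold change of -0.17 (adjusted p = 0.0039). Serpinb6a was not called with the length and GC trend removed (log2 fold change -0.067, adjusted p = 0.288).

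Host transcripts of small RNAs included rises and falls. GENCODE places small RNA genes on the same strand inside 18 Rik and 3 Gm members, of which 6 and 2 rose, 3 and 0 fell, and 9 and 1 were not called, against 26.0% higher and 17.4% lower over all genes tested. 2410006H16Rik, the host of the snoRNAs Snord49b, Snord49a and Snord65 at chr11:62602877-62604807 on the plus strand, measured 137, 129, 152 and 149 CPM in the miR-690oe libraries, against 174, 178, 161 and 183 CPM in the control libraries (log2 fold change -0.30 ± 0.056 SE, adjusted p = 0.000623). All 4 miR-690oe values were below the control values, and at 462 nt it is among the shortest of its class. 1110038B12Rik, host of Snord52, fell with 97.5 CPM in miR-690oe against 111 CPM in control cells (log2 fold change -0.19, adjusted p = 0.00643). 2700038G22Rik, host of Snord93, rose with 4.73 CPM in miR-690oe against 3.56 CPM in control cells (log2 fold change 0.37, adjusted p = 0.0093). 1810032O08Rik, now Snhg16, host of Snord1a to Snord1c, did not pass the test with 21.4 CPM in miR-690oe against 21.9 CPM in control cells. These last 3 hosts were chosen after their values were seen.

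**Figure D2:**
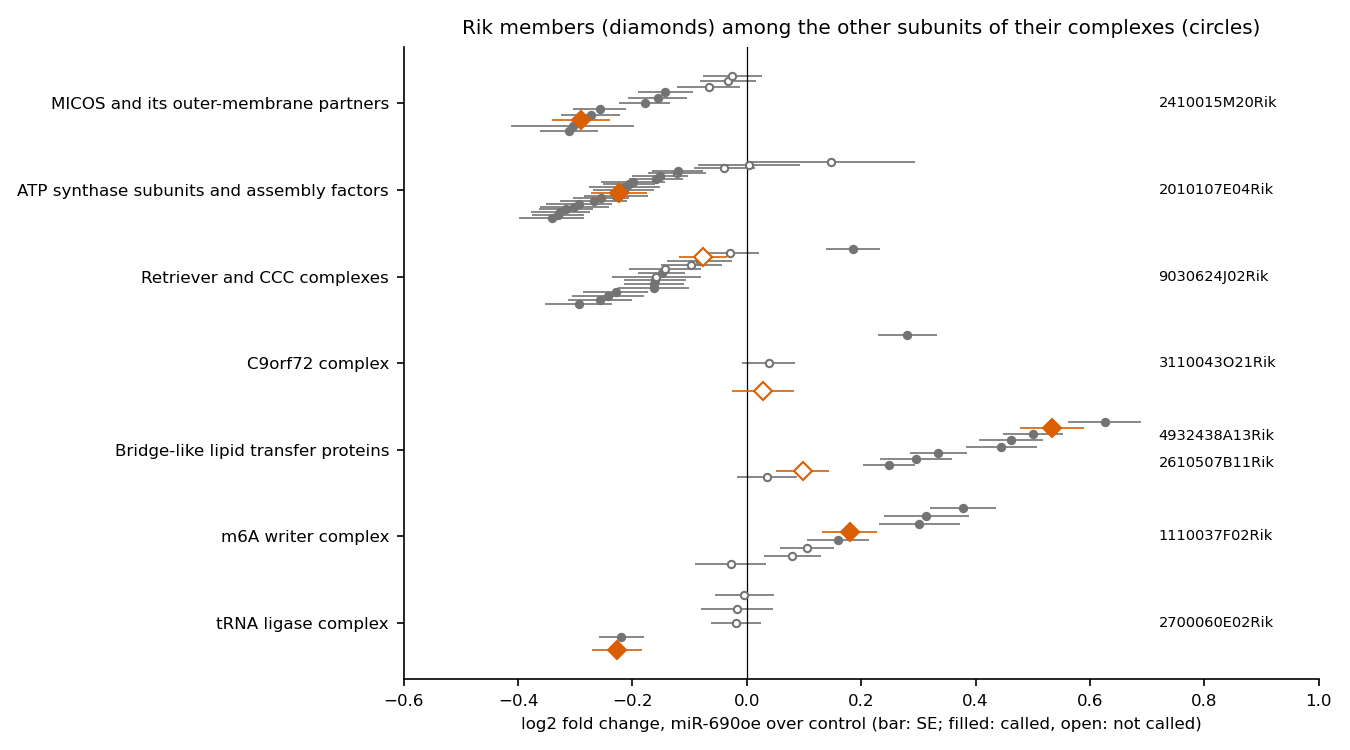
Log2 fold change, miR-690oe over control, of each gene in the 7 complexes or families that hold a Rik member, with the SE as bar. Diamonds are the Rik members, named on the right, circles are the other subunits, and filled symbols are called. The ATP synthase and MICOS genes lie mostly below 0 and the bridge-like lipid transfer proteins mostly above 0, and the Rik member of the tRNA ligase complex lies lowest of its 5 genes.

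Several Rik members are known subunits of complexes, and the other subunits were listed beside them. Of 73 genes in the 7 complexes or families that hold a Rik member, 15 were higher and 35 lower, and these are to be read against 26.0% higher and 17.4% lower and a median of 0.021 over all genes tested. Without the length and GC trend, 3 were higher and 21 lower, against 7.38% and 9.09% of all genes.

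5 Rik members of known mitochondrial role were looked at and all 5 fell. They were chosen with earlier results known, and 17.4% of all genes tested were lower. Under 1000 nt, 31.4% of Rik members and 67.3% of the other genes were lower. Median control levels of these short genes were 4.06 CPM for Rik members and 44.5 CPM for the others. With the length and GC trend removed, only 1810058I24Rik of the 5 kept its call. 2410015M20Rik (Micos13), a subunit of the MICOS complex that shapes the folds of the inner membrane, measured 93.3, 97.4, 104 and 109.6 CPM in the miR-690oe libraries, against 125, 124, 121 and 126 CPM in the control libraries (log2 fold change -0.29 ± 0.05 SE, adjusted p = 0.000321). The groups did not overlap. Of 11 genes of MICOS and its outer-membrane partners, 8 were lower and 0 higher, with a median log2 fold change of -0.18. Chchd6 was lower by the same test (-0.31, adjusted p = 0.000205), and Immt, the core subunit, was not called at -0.032. Without the length and GC trend 3 of the 11 were lower, with a median of -0.081 (-0.0805 before rounding), and 2410015M20Rik lost its call (log2 fold change -0.079, adjusted p = 0.143).

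2010107E04Rik (Atp5mpl), a small protein of the mitochondrial ATP synthase, measured 101, 109.8, 114 and 113 CPM in the miR-690oe libraries, against 128, 133, 121 and 129.8 CPM in the control libraries (log2 fold change -0.22 ± 0.049 SE, adjusted p = 0.00175). It was lower in all 4 libraries, and 17 of 21 ATP synthase subunits and assembly factors were lower and 0 higher, with a median log2 fold change of -0.22 (-0.215 before rounding). Without the length and GC trend its own log2 fold change was -0.0015, the list's median was -0.068, and 5 of the 21 were lower.

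3 further members act in mitochondria, and 1500011K16Rik and 1110008F13Rik lost the call with the length and GC trend removed. 1500011K16Rik (Mtln), a microprotein of the inner membrane, averaged 6.01 ± 0.491 CPM in miR-690oe cells and 7.36 ± 0.309 CPM in control cells (SD, n = 4 each, log2 fold change -0.28 ± 0.083 SE, adjusted p = 0.0133). 1810058I24Rik (Stmp1), a small membrane protein that GENCODE M21 still lists as a lncRNA, measured 84, 85.9, 89.7 and 88.3 CPM in the miR-690oe libraries, against 103, 106, 102 and 101 CPM in the control libraries (log2 fold change -0.24 ± 0.042 SE, adjusted p = 0.00034). Its values were tight within each group and did not overlap, and its fall was as large with the length and GC trend removed (log2 fold change -0.25, adjusted p = 0.000487). 1110008F13Rik (Rab5if, also RCAF1), named as a factor of respiratory chain assembly, averaged 160.5 ± 19.3 CPM in miR-690oe cells and 189 ± 6.76 CPM in control cells (SD, n = 4 each, log2 fold change -0.24 ± 0.068 SE, adjusted p = 0.00845).

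2700060E02Rik (Rtraf), a subunit of the ligase complex that joins the cut ends of tRNAs, measured 126, 133, 126 and 128 CPM in the miR-690oe libraries, against 157, 153, 142 and 149 CPM in the control libraries (log2 fold change -0.23 ± 0.044 SE, adjusted p = 0.000703). No value of one group reached the other. Rtcb, the ligase itself, was lower as well (log2 fold change -0.22, adjusted p = 0.000455), and Ddx1, Fam98a and Fam98b were not called, at -0.018, -0.0043 and -0.017. Without the length and GC trend 3 of the 5 were lower: 2700060E02Rik at -0.17, Rtcb at -0.14 and Ddx1 at -0.19 (adjusted p = 0.00965).

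2 more members fell. 2310036O22Rik (Trir), an RNase that binds the telomerase RNA, averaged 96.1 ± 8.12 CPM in miR-690oe cells and 114 ± 4.11 CPM in control cells (SD, n = 4 each, log2 fold change -0.25 ± 0.055 SE, adjusted p = 0.00189). 1110008P14Rik averaged 80.4 ± 7.46 CPM in miR-690oe cells and 94.8 ± 4.82 CPM in control cells (SD, n = 4 each, log2 fold change -0.24 ± 0.061 SE, adjusted p = 0.00514), and its fall passed the test with the length and GC trend removed as well (log2 fold change -0.20, adjusted p = 0.0321).

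The bridge-like lipid transfer proteins, long proteins with a groove along which lipids slide between membranes, were mostly higher: 8 of 10 were higher and 0 lower, with a median log2 fold change of 0.39. The other Rik member beside 4932438A13Rik is 2610507B11Rik (Kiaa0100), and it was not called, with 309, 316, 302 and 277 CPM in the miR-690oe libraries, against 279.5, 283, 271 and 289 CPM in the control libraries (log2 fold change 0.10 ± 0.046 SE, adjusted p = 0.0971). Its groups overlapped through miR-690oe replicate 4, and without that library it passed the test (0.14, adjusted p = 0.0153). Vps13c was higher by 0.63 (adjusted p = 4.54e-06) and Atg2a was not called at 0.036. Without the length and GC trend 1 of the 10 was higher and 2 lower, with a median of 0.021, and 2610507B11Rik was called lower (log2 fold change -0.16, adjusted p = 0.0138).

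Other complexes held a member with a smaller change or none. 1110037F02Rik (Virma), the scaffold subunit of the complex that writes N6-methyladenosine on mRNA, measured 124, 116, 116 and 107 CPM in the miR-690oe libraries, against 99.8, 105, 102 and 102 CPM in the control libraries (log2 fold change 0.18 ± 0.048 SE, adjusted p = 0.00675), and 5 of 8 genes of the complex were higher and 0 lower, with a median of 0.17. Mettl3, the catalytic subunit, was not called at -0.028. With the trend removed 2 of the 8 were higher and 1 lower, with a median of 0.026, Mettl14 being the lower one (-0.16, adjusted p = 0.0365), and Virma itself was not called (-0.095, adjusted p = 0.0963). 9030624J02Rik (Vps35l), a subunit of the Retriever complex that returns membrane proteins from endosomes, averaged 93.8 ± 1.94 CPM in miR-690oe cells and 99 ± 2.47 CPM in control cells (SD, n = 4 each). All its miR-690oe values were below the control values, yet it did not pass the test (log2 fold change -0.077 ± 0.042 SE, adjusted p = 0.151), and it was called lower with the trend removed (log2 fold change -0.23, adjusted p = 0.00164). Of 15 Retriever and CCC genes, 8 were lower and 1 higher, and 7 were lower and 0 higher with the trend removed.

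3110043O21Rik (C9orf72), which acts in autophagy and membrane traffic and whose human counterpart is altered in motor neuron disease, averaged 65.6 ± 4.52 CPM in miR-690oe cells and 64.2 ± 2.6 CPM in control cells (SD, n = 4 each, log2 fold change 0.029 ± 0.054 SE, adjusted p = 0.695). Of its 2 partners, Smcr8 was higher (0.28, adjusted p = 0.000552) and Wdr41 was not called at 0.038, and 0 of the 3 were called with the trend removed, where Smcr8 stood at 0.0058.

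The Rik member with the most reads did not change by the test. 9530068E07Rik, which RefSeq also lists as Kct2, measured 313, 312, 339 and 322 CPM in the miR-690oe libraries, against 322, 319, 333 and 332 CPM in the control libraries (log2 fold change -0.023 ± 0.042 SE, adjusted p = 0.685). Per kb of transcript it had 130.1 CPM in miR-690oe and 132 CPM in control cells, below 2410006H16Rik at 307 and 377 CPM per kb. At the ends of the length range, E130308A19Rik (10856 nt) averaged 9.99 ± 0.772 CPM in miR-690oe cells and 9.04 ± 0.607 CPM in control cells (SD, n = 4 each) and 1700029I15Rik (416 nt) averaged 1.36 ± 0.109 CPM in miR-690oe cells and 1.22 ± 0.163 CPM in control cells (SD, n = 4 each), and neither was called (adjusted p = 0.177 and 0.5). The log2 fold change of E130308A19Rik, 0.14 in this fit, turned negative with the length and GC trend removed, as given in the closing section. With that trend removed E130308A19Rik was called lower.

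The Gm members that rose were led by a gene with a name of its own. Gm15800, listed by RefSeq as Hectd4, carries the HECT domain of a family of ubiquitin ligases, lies at chr5:121220219-121368577 on the plus strand, and measured 72.4, 58.3, 55.7 and 58.9 CPM in the miR-690oe libraries, against 43.9, 37.9, 41 and 41.7 CPM in the control libraries (log2 fold change 0.57 ± 0.072 SE, adjusted p = 2.44e-05). The groups did not overlap, and miR-690oe replicate 1 was the highest. The rise passed the test with the length and GC trend removed (log2 fold change 0.17, adjusted p = 0.0187), at a smaller size on the log2 scale.

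Gm17066, a lncRNA at chr14:105109390-105114676 on the minus strand, measured 15.3, 16.9, 14.3 and 19.4 CPM in the miR-690oe libraries, against 11.5, 12.6, 12.3 and 11.2 CPM in the control libraries (log2 fold change 0.45 ± 0.085 SE, adjusted p = 0.000636). It shares 37.1% of its exon sequence with Rbm26, a gene of an RNA-binding protein on the same strand, and Rbm26 rose alike (log2 fold change 0.48, adjusted p = 1.72e-05). Gm10336, a lncRNA by RefSeq at chr13:12182717-12186488, measured 14.3, 11.9, 12.3 and 13.5 CPM in the miR-690oe libraries, against 8.79, 10.1, 11.4 and 10.3 CPM in the control libraries (log2 fold change 0.34 ± 0.085 SE, adjusted p = 0.00394). It lies within Mtr, the gene of methionine synthase, which also rose (0.32, adjusted p = 0.000391). In both pairs the members' values cannot be told apart from reads of the overlapping gene.

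Gm20605, a transcript that RefSeq lists as Lrch4-sap25 and that shares 94.8% of its exon sequence with other genes on its strand, averaged 19.2 ± 2.06 CPM in miR-690oe cells and 15.2 ± 0.723 CPM in control cells (SD, n = 4 each, log2 fold change 0.32 ± 0.076 SE, adjusted p = 0.0028). Gm20219 stood near 1 CPM, with 1.62, 1.77, 1.22 and 1.99 CPM in the miR-690oe libraries, against 1.21, 1.17, 1.01 and 1.06 CPM in the control libraries (log2 fold change 0.40 ± 0.14 SE, adjusted p = 0.0293). Its miR-690oe values all exceeded the control values, and the call was lost when any 1 of 5 libraries was left out (control replicates 3 and 4, miR-690oe replicates 1, 2 and 4), with adjusted p up to 0.0847.

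Of the 3 Gm members that fell, Gm5617 moved most in size. It is a single-exon coding gene at chr9:48495442-48495972 on the plus strand and measured 13.8, 14.2, 15 and 14.1 CPM in the miR-690oe libraries, against 20.8, 20.4, 19.6 and 19.5 CPM in the control libraries (log2 fold change -0.48 ± 0.06 SE, adjusted p = 2.25e-05). The groups were far apart compared with the spread within them, and the fall passed the test with the trend removed (log2 fold change -0.25, adjusted p = 0.0144). Gm1673, a coding gene of 511 nt, measured 17.4, 18, 16.4 and 20.9 CPM in the miR-690oe libraries, against 22.9, 24.4, 22.1 and 23.1 CPM in the control libraries (log2 fold change -0.35 ± 0.071 SE, adjusted p = 0.00111), also without overlap. Gm1943 is the shortest member, a pseudogene of 174 nt whose sequence is found whole in transcripts of Wdr70, and it averaged 16.3 ± 1.68 CPM in miR-690oe cells and 18.9 ± 0.812 CPM in control cells (SD, n = 4 each, log2 fold change -0.21 ± 0.072 SE, adjusted p = 0.0256). Its groups overlapped, and the call was lost without control replicate 1 or 4 or miR-690oe replicate 3 or 4, with adjusted p up to 0.0707.

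The remaining Gm members that were named for level or length were not called. Gm14403 averaged 108 ± 11.9 CPM in miR-690oe cells and 114 ± 18.6 CPM in control cells (SD, n = 4 each) and Gm14325 averaged 43.4 ± 4.85 CPM in miR-690oe cells and 46.7 ± 5.16 CPM in control cells (SD, n = 4 each). Both lie on chromosome 2, and in both the SD of either group exceeded the difference between the means. Gm2115 (Ctxnd1), with 7055 nt, averaged 52.4 ± 4.55 CPM in miR-690oe cells and 48.5 ± 3.94 CPM in control cells (SD, n = 4 each), and Gm15694, with 283 nt, averaged 1.73 ± 0.49 CPM in miR-690oe cells and 1.76 ± 0.337 CPM in control cells (SD, n = 4 each). Their adjusted p-values were 0.59, 0.317, 0.197 and 0.899 in that order.

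**Figure D3:**
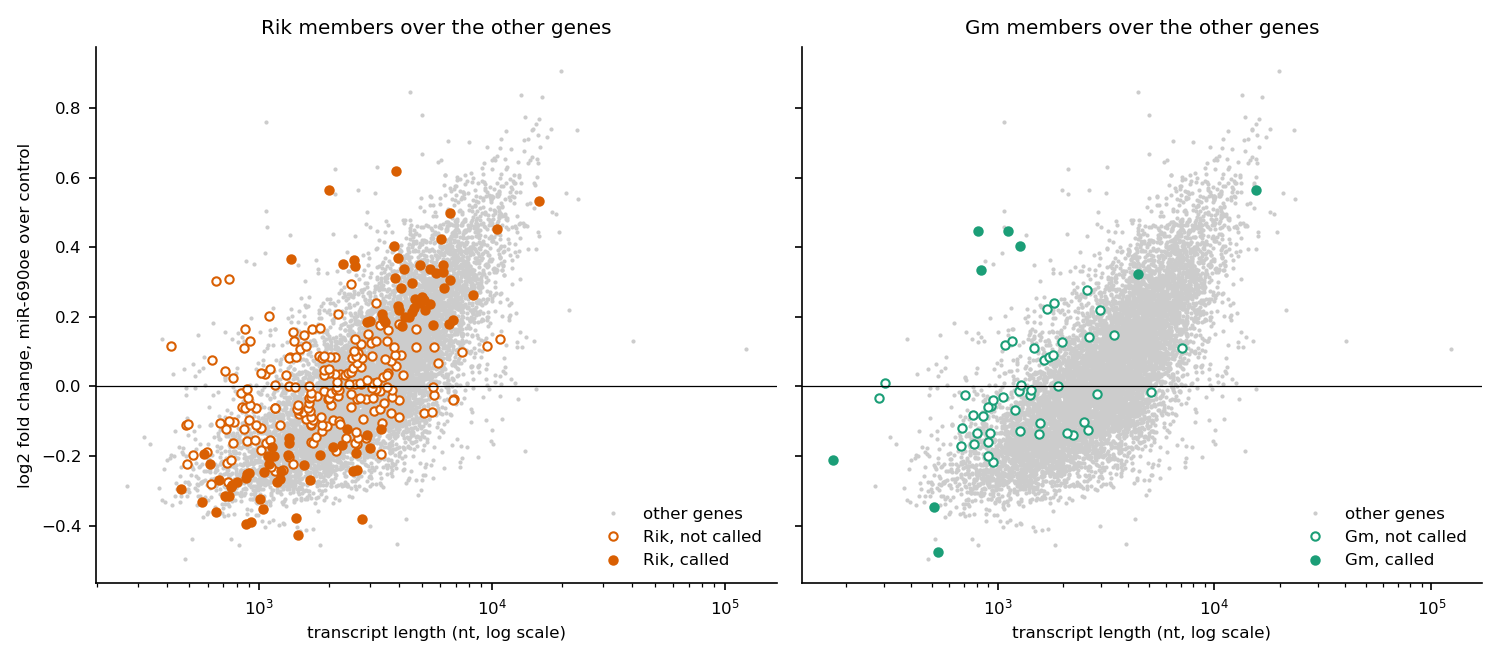
Log2 fold change, miR-690oe over control, against the length of the longest annotated transcript in nt on a log axis, for Rik members (left) and Gm members (right) over the other genes in grey. Filled points are called. Called Rik members under 1000 nt all lie below 0 and those of 4000 nt or more all lie above 0, within the cloud of the other genes.

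Direction followed the length of the transcript in the Rik members, as in the rest of the table. Among Rik members under 1000 nt, 0 of 51 were higher and 16 lower, with a median log2 fold change of -0.15. Among those from 1000 to under 2000 nt, 1 of 86 was higher and 18 lower, and the median was -0.078. From 2000 to under 4000 nt, 15 of 106 were higher and 10 lower, with a median of 0.013. Of the 44 Rik members of 4000 nt or more, 29 were higher and 0 lower, with a median of 0.22.

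The other genes showed the same order, with 2 higher and 352 lower of 523 under 1000 nt and 2184 higher and 72 lower of 3560 at 4000 nt or more. Their medians were -0.22 and 0.20. Called Rik members that rose had a median length of 4554 nt and those that fell 1146 nt. In the Gm class 2 of 21 under 1000 nt were higher and 3 lower, 2 of 21 from 1000 to under 2000 nt were higher and 0 lower, 0 of 9 from 2000 to under 4000 nt were called (1 had an unadjusted p under 0.05), and 2 of 4 of 4000 nt or more were higher. The Gm medians in these ranges, -0.12, 0.077, -0.021 and 0.22, were not in order. The labels give no measure of RNA quality, and what makes the values go with length was not tested.

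**Figure D4:**
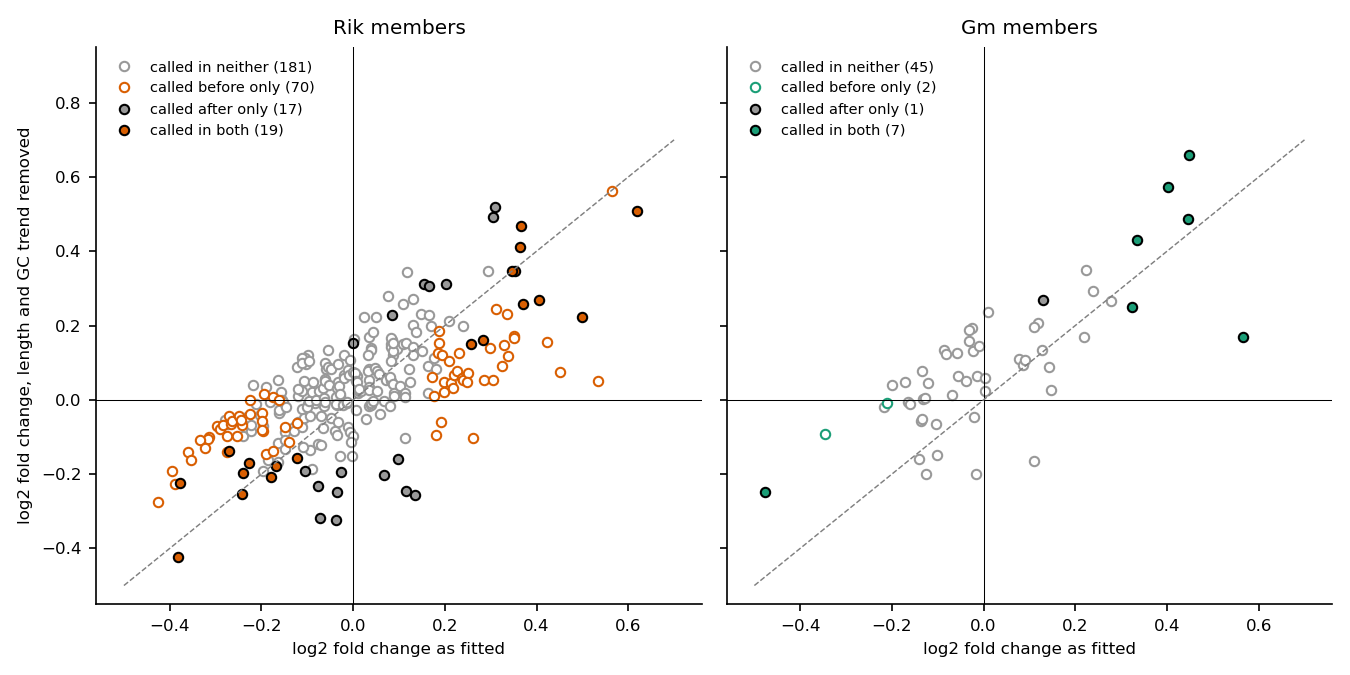
Log2 fold change of each member as fitted (x axis) and with the trend over transcript length and GC content removed from every library (y axis), for Rik (left) and Gm members (right). Colours give where the member was called and the dashed line marks equal values. Most Rik calls move towards 0, and 19 Rik and 7 Gm members were called in both fits.

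A second fit removed from each library a smooth trend over transcript length and GC content before the test. Removing it takes out any change that goes with length, whatever its source. In that fit 16.5% of all genes tested were called, 7.38% higher and 9.09% lower. 17 Rik members were higher and 19 lower of 287 (12.5%), and 7 Gm members were higher and 1 lower of 55 (14.5%). The Rik calls shared by both fits were 10 higher and 9 lower, and the Gm calls shared were 6 higher and 1 lower. 70 Rik and 2 Gm calls were lost, none turned to a call in the other direction, and 17 Rik members and 1 Gm member were called only in the second fit. Among the 42 members named by the rule given further on, 30 were called and have a length, and 12 of these kept the call. Those that lost it were, among rises, 4932438A13Rik, 2410089E03Rik, 2810474O19Rik, 2700049A03Rik, C330027C09Rik and 1110037F02Rik, and, among falls, 2200002D01Rik, C330013E15Rik, D330023K18Rik, 1810021B22Rik, 2410006H16Rik, 2410015M20Rik, 2010107E04Rik, 1500011K16Rik, 2310036O22Rik, 1110008F13Rik, Gm1673 and Gm1943.

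By annotation, with the trend removed 9 Rik lncRNAs were higher and 2 lower of 101, and 8 Rik coding genes were higher and 17 lower of 178. The lower lncRNAs include 1810058I24Rik (Stmp1), which GENCODE M21 lists as a lncRNA though it is known as a small protein. The other lncRNAs of the table leaned the same way, with 8 higher and 2 lower of 59 (16.9%, against 10.9% of the Rik lncRNAs), and of the other coding genes 746 were higher and 942 lower of 10188. The median log2 fold change was 0.060 over Rik lncRNAs and 0.0035 over Rik coding genes. Beside 3110039I08Rik and 2700038G22Rik, the rises shared by both fits include 3 members annotated as lncRNAs that were chosen after their values were seen. 9330151L19Rik averaged 9.02 CPM in miR-690oe against 6.88 CPM in control cells (log2 fold change 0.36, and 0.41 with the trend removed). D130017N08Rik averaged 3.27 CPM in miR-690oe against 2.46 CPM in control cells (0.35 in both fits) and D930016D06Rik (Thoc2l) averaged 17.3 CPM in miR-690oe against 12.9 CPM in control cells (0.41, and 0.27 with the trend removed).

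The share of Rik members called also moved with their level. Of Rik members with a mean under 2 CPM, 0 of 18 were called, and 1 had an unadjusted p under 0.05. The share was 12.7% of 110 from 2 to 10 CPM, 39.1% of 115 from 10 to 50 CPM and 60.4% of 53 at 50 CPM or more. The other genes gave 6.06%, 20.2%, 39.4% and 53.0% in the same ranges. The few Gm members did not follow that order: 2 of 13, 1 of 30, 6 of 12 and 1 of 3 were called. The median SE of the log2 fold change was 0.075 for Rik and 0.10 for Gm members, against 0.057 for the other genes. Over Rik members it was 0.15 under 2 CPM and 0.051 at 50 CPM or more, and over Gm members 0.14 and 0.072 in the same ranges.

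Many members overlap other genes, and the sources used here do not give whether the authors counted reads by strand. Exons on the opposite strand overlap 92 Rik and 13 Gm members, and exons on the same strand overlap 16 and 4. Without strand, reads of 2 such genes cannot be told apart, so these values are uncertain. Of the named members, 1110008F13Rik (50.9% of its exon sequence), 2700060E02Rik (28.0%), 1110008P14Rik (27.8%), 2200002D01Rik (24.6%), 1700029I15Rik (23.1%), 1110046J04Rik (21.04%) and 9030624J02Rik (21.03%) share over 20% with exons of the opposite strand. Of 12 pairs in which a Rik member fell and another gene of the table lay across from it, the other gene rose in 3, fell in 3 (Yif1b, Serpinb6a and Arfgap2) and was not called in 6. Of 6 such pairs in which the Rik member rose, the other gene fell in 1 and was not called in 5. Where the Rik member was not called, the other gene rose in 19 of 64 pairs, fell in 5 and was not called in 40. These counts are to be read against 26.0% higher and 17.4% lower over all genes tested. The 3 pairs in which the Rik member fell and the other gene rose are given first. 1110065P20Rik had 50.3 CPM in miR-690oe against 60.6 CPM in control cells (log2 fold change -0.27, adjusted p = 0.000952), against 0.25 for Mtf1, a metal-responsive transcription factor (adjusted p = 0.00141). 2700060E02Rik stood against Nid2, a basement membrane protein, which rose by 0.27 (adjusted p = 0.00315). 2810025M15Rik had 17.5 CPM in miR-690oe against 21.2 CPM in control cells (-0.28, adjusted p = 0.00312), against 0.47 for Rasal2, a regulator of Ras (adjusted p = 4.76e-05). In the reverse pair 4933431E20Rik had 26.4 CPM in miR-690oe against 22.4 CPM in control cells (0.24, adjusted p = 0.00448), against -0.20 for Gstm5, a glutathione transferase (adjusted p = 0.00462). These pairs were chosen after their values were seen. With the length and GC trend removed, Nid2 stayed higher (log2 fold change 0.16, adjusted p = 0.0386). Mtf1 (-0.026, adjusted p = 0.767), Rasal2 (0.098, adjusted p = 0.277) and Gstm5 (-0.021, adjusted p = 0.779) were not called in that fit. Yif1b, Serpinb6a and Arfgap2 also lost their calls there (adjusted p = 0.749, 0.288 and 0.056). The exon sequence shared within each pair is not given, so the pairs do not show shared reads.

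Near copies touch the Gm class more than the Rik class in number. 12 of the Gm and 3 of the Rik members had another gene whose transcript matched at least 80% of theirs at 95% identity or more. Gm6548 matches Eef1a1, a translation factor, over its whole length at 96.7% identity, Gm4737 matches Ahcy, and Gm3219 matches Bcl7c. Of these 15 members 2 were higher, 5830417I10Rik (a copy of Gon4l sequence, log2 fold change 0.35) and Gm10509 (of Zfp983, 0.33), and 1 was lower, Gm1943, against 43.4% called over all genes tested. Reads of these may have come from the parent gene, which was not tested.

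The study overexpressed a microRNA, so the 3' UTRs of coding members were read for its seed match. The mature sequence in RefSeq (GRCm38.p6, chr16:28599940-28599961 on the minus strand) is given with the seed in capitals, and the matching letters in DNA are TAGCCTT. The labels call the agent miR-690-5p, and RefSeq lists 1 mature form.
mmu-miR-690: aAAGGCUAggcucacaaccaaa

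A match was present in 20 of 178 Rik members with an annotated 3' UTR (11.2%) and in 0 of 16 Gm members, against 11.9% of all genes tested with a 3' UTR. Of the 20, 5 were higher and 3 lower, with a median log2 fold change of -0.0091, and of the 158 without a match 26 were higher and 29 lower, with a median of -0.030. Over all genes tested 485 were higher and 118 lower of 1237 with a match, and 2241 higher and 1700 lower of 9122 without, and the medians were 0.094 with and 0.0088 without a match. 3' UTRs with a match are longer, with a median of 2318 against 895 nt without one in Rik members. Without the length and GC trend the medians were -0.11 with and 0.013 without a match in Rik members, and -0.029 and -0.0042 over all genes. No test was run on these groups.

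The sites of the 8 called Rik members are shown with up to 10 bases on each side, in the direction of the mRNA, the match in capitals. The first 3 belong to members that fell, with log2 fold changes of -0.18, -0.17 and -0.12, and the other 5 to members that rose, with 0.19 to 0.50.
0610037L13Rik: cagtggcagcTAGCCTTgtgatagcca
B230118H07Rik: ttcttttaagTAGCCTTtacattttat
1600014C10Rik: ttccttgggcTAGCCTTgaagtcctgg
2810403A07Rik: tgacctgatcTAGCCTTttccaaatga
2610008E11Rik: gtTAGCCTTtggagatgta
6030458C11Rik: aaccaactgaTAGCCTTccatcctgat
4930402H24Rik: tatataaaagTAGCCTTcaatttattt
9930021J03Rik: ttaagtaagcTAGCCTTttcacactta

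The 3 that fell were 0610037L13Rik (Czib) with 24.1 CPM in miR-690oe against 27.3 CPM in control cells, B230118H07Rik (Iftap) with 46.2 CPM in miR-690oe against 51.8 CPM in control cells and 1600014C10Rik with 59 CPM in miR-690oe against 64.3 CPM in control cells, and all 3 stayed lower without the length and GC trend (-0.21, -0.18 and -0.16). Of the 5 that rose, 9930021J03Rik stayed higher in that fit and the other 4 were not called. A match is a run of letters and does not show that miR-690 binds there.

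Promoter windows of the members were searched for 3 motifs of core promoters on both strands. RefSeq gave 279 windows of 243 Rik genes and 44 windows of 41 Gm genes, each of 250 bases before to 50 after a start. The GC box GGGCGG was in 59.5% of Rik and 52.3% of Gm windows, against 65.0% of windows of genes in the table. CCAAT was in 37.6% and 45.5%, against 38.4%, and TATAAA was in 5.38% and 11.4%, against 6.72%. The median number of CG pairs was 22 in Rik and 12.5 in Gm windows, against 21 in the table. Members called higher and lower had medians of 21 and 23.

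4 windows are shown for members with large or well separated changes, with these motifs in capitals (GRCm38.p6). The first 2 members rose and the last 2 fell, and all 4 windows hold GGGCGG on one strand or the other.
D830031N03Rik, chr4:123411862-123412161, minus strand: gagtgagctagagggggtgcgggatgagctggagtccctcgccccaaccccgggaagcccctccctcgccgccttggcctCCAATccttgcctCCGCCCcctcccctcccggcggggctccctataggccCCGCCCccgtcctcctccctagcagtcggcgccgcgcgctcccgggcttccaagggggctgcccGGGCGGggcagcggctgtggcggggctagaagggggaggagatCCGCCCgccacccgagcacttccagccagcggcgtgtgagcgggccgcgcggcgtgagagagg
4932438A13Rik, chr3:36862856-36863155, plus strand: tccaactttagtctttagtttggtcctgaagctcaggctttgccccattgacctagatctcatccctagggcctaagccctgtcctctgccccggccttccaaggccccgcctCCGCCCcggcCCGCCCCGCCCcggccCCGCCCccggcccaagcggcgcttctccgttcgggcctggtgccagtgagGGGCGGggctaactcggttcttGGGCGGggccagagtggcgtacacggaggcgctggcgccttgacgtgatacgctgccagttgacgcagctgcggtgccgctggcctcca
2410006H16Rik, chr11:62602627-62602926, plus strand: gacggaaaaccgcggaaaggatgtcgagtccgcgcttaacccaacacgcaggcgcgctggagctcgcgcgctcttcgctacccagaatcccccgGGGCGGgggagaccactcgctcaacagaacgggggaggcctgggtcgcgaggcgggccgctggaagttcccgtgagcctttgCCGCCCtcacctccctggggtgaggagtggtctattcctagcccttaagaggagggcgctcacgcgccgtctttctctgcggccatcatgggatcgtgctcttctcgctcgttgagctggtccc
Gm5617, chr9:48495093-48495392, plus strand: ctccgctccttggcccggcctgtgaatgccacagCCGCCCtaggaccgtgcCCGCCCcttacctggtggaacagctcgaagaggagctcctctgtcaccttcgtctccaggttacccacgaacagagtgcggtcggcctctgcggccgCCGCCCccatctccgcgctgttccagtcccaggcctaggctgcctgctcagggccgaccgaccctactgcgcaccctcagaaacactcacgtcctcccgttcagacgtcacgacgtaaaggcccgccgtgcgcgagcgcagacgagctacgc

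The authors' deposited table holds a test of its own, with a false discovery rate for each gene. At 0.05, the authors' deposited table called 48 Rik members higher and 54 lower and 7 Gm members higher and 4 lower, against 24.7% of all its genes higher and 20.6% lower (45.3% together). Of these calls 90 Rik and 10 Gm ones were also called here, all in the same direction, while 12 Rik and 1 Gm calls were the authors' alone and 1 Rik call was made here alone.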

How the data were processed

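RNA-seq was measured in 8 libraries. Per the submitters' processing notes, Trimmomatic 0.38, edgeR 3.20.9 and mm10 were used, with no role given; the sources used here do not give the aligner, counter or strand setting. The deposited values were named RPKM, but every column sums to 1000000 and holds whole multiples of 1 step (within 0.1 read), so they were read as CPM over the listed genes; the steps gave the depth. The authors' deposited log2 fold change, mean log2 CPM, score (a likelihood ratio) and p-value per gene were used only for the last comparison.

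Genes with at least 0.5 CPM in at least 4 libraries were tested (10658 of 10663) with limma 3.58.1 in R 4.3.3 on log2(CPM + 0.5), eBayes with trend, two-sided, with Benjamini-Hochberg adjustment over all genes and a threshold of 0.05, after a check on simulated data. No count model was fitted. The trend removal used natural splines (5 degrees of freedom each) of log2 length and GC content of the longest basic GENCODE M21 transcript, matched for 99.5% of the entries, 288 Rik (37 by an older symbol) and 56 Gm members (3 by an older symbol). Copies were sought with blastn 2.17.0, and sequences came from RefSeq (GRCm38.p6) and GENCODE M21.

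Members, gene lists and tests were chosen with earlier results of these data known. Members named are, in each class, the 6 highest and 6 lowest log2 fold changes among called members with a mean of at least 1 CPM and no overlap of groups, the 5 with the highest mean CPM, the 2 longest and 2 shortest, the Rik members of the listed complexes and those with a listed role, 42 in all. Others are said to be chosen after their values were seen, are pairs with such a member, or carry a seed match. Replicates were compared for duplicates: 0 values were identical in any pair. The step between values differed from library to library, so this could find only a copied column, not a repeat library of the same culture. Alternatives covered pseudocount, filter, scaling, variance model, length and GC trend, replicate block and leaving out each library.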

Additional observations from a re-analysis of the deposited data

Results flagged for a closer look

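In 88 sets of 4 libraries (each named member and each class sum, by group), a single library lay far from the other 3 in 2 cases, and chance gives such a gap in about 1 of 20 sets. 1500011K16Rik (Mtln) had 7.83 CPM in control replicate 3, with the other control libraries at 7.19 to 7.22 CPM. 2310036O22Rik (Trir) had 108 CPM in miR-690oe replicate 4 (108.2 before rounding), with the other miR-690oe libraries at 90.9 to 92.9 CPM. Both members stayed lower in miR-690oe when any 1 library was left out, with adjusted p up to 0.0453 and 0.00868.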

How the results depend on the processing

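All 32 called members among the 42 named kept their direction and call with pseudocounts of 0.1 and 1, no filter on low values, a filter at 1 CPM, TMM scaling, quantile normalization and no variance trend, and 30 of them in every fit without 1 library; the exceptions are Gm20219 and Gm1943. Of the 30 called members that have a length, 12 stayed called with the length and GC trend removed. That step gave 17 Rik members higher and 19 lower, 1 Gm member lower, medians of 0.023 (Rik, 0.0225 before rounding) and 0.077 (Gm), and 3 higher and 21 lower among genes of complexes with a Rik member; it turned 2610507B11Rik to -0.16, E130308A19Rik to -0.26 and 1110037F02Rik to -0.095. TMM scaling moved the Rik median to -0.048 and quantile normalization to -0.054, quantile normalization gave 5 Gm members lower, and so did the fit with no variance trend. What moved these values, other than the trend taken out by construction, was not tested.

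The values gave no sign that the replicate numbers pair the libraries. Same-numbered libraries correlated at -0.30, 0.31, -0.10 and -0.33 in their deviations from the group means, and not every library correlated best with its own number. The labels do not say whether same-numbered libraries were handled together, and so few correlations cannot decide it. With the replicate number as a block, 42 Rik members were higher and 40 lower, 7 Gm higher and 3 lower, and all 32 named calls were kept. The block with the length and GC trend removed, added after the data were seen, gave 11 Rik higher and 15 lower, 6 Gm higher and 1 lower, medians of 0.023 and 0.077, 1 higher and 16 lower among genes of complexes with a Rik member, and -0.16 for 2610507B11Rik and -0.095 for 1110037F02Rik.

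Leaving out 1 library at a time gave 38 to 48 Rik members higher and 36 to 46 lower, 4 to 8 Gm higher and 2 to 3 lower, medians of -0.034 to -0.0079 (Rik) and -0.045 to -0.013 (Gm), and 14 to 16 higher and 29 to 34 lower among genes of complexes with a Rik member. The count of 4 Gm members higher came without miR-690oe replicate 2. In at least 1 such fit 15 Rik rises, 14 Rik falls, 3 Gm rises and 1 Gm fall were lost. The planned edgeR and DESeq2 tests on recovered reads were not run: the values are whole multiples of their step within 0.1 read, but a further check of the recovered reads was not met, so no count model was fitted. Depth limits the lowest members most, with a median SE of 0.15 for Rik members under 2 CPM.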
